A study of Mus musculus with 4 samples.

Results

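Nuclear genes of the mitochondrial respiratory chain and of ATP synthase were examined in round spermatids, the haploid germ cells that follow meiosis in the mouse testis. Genes were taken by symbol: those beginning with Nduf, Uqcr, Cox4 to Cox8 or Atp5, the 4 genes Sdha to Sdhd, and the cytochrome c genes Cycs and Cyct. The rule found 92 of the 25965 listed genes, after 1 symbol marked as a pseudogene was left out. They comprised 36 complex I subunits, 4 complex I assembly factors, 4 genes of complex II, 8 of complex III, 20 of complex IV, 15 of complex V and 2 of cytochrome c. The other 3 matches, Cox4nb, Atp5s and Atp5sl, do not encode chain subunits. GENCODE names Cox4nb as Emc8 and Atp5sl as Dmac2. The series compared spermatids labelled Wfdc15a-/- (the knockout, 2 libraries) with spermatids labelled Wfdc15a+/- (heterozygous, 2 libraries). All 4 libraries came from sorted testis germ cells of the ICR background and all carried at least 1 altered Wfdc15a allele. RNA was amplified by Smart-seq2, a full-length method without molecular identifiers. The labels state no age and do not say whether the replicates are different mice. The p-values below therefore describe only how these libraries vary, which may be technical. Wild-type cells were not analysed here.

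The respiratory chain passes electrons from NADH through complex I, and from succinate through complex II, to complex III, then through the small soluble protein cytochrome c to complex IV, which reduces oxygen. Complexes I, III and IV pump protons, and complex V, the ATP synthase, makes ATP as the protons return. Male germ cells are known for testis versions of several complex IV subunits and of cytochrome c, and X-linked genes are silenced at meiosis and remain low in many spermatids.

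The table gave log2 RPM (reads scaled to one common library total), here returned to RPM. Library totals, recovered from the worth of 1 read in each library, were 21160061 and 11268909 reads for Wfdc15a-/- libraries 1 and 2 and 5774112 and 33853604 reads for Wfdc15a+/- libraries 1 and 2. Wfdc15a transcript was at 82.6 and 59.5 RPM in the Wfdc15a-/- libraries, against 121 and 85.2 RPM in the Wfdc15a+/- libraries (log2 difference -0.53, SE 0.29, limma adjusted p = 0.647). The labels do not say which bases of the gene were altered, so this level does not check the genotypes, which are used as labelled. All 12 round spermatid markers were detected in every library. Of 10 elongating spermatid markers, 5 were lower in both Wfdc15a-/- libraries at an unadjusted p under 0.05 in limma. Over all tested genes, 1.87% were lower at that level. None of the 10 passed the adjusted threshold. The summed level of all 10 was 7317 and 7037 RPM in the Wfdc15a-/- libraries, against 6308 and 10880.1 RPM in the Wfdc15a+/- libraries. Sertoli markers summed to 52.1 and 46.1 RPM in the Wfdc15a-/- libraries, against 16.5 and 32.3 RPM in the Wfdc15a+/- libraries, with Amh at 0 reads in all 4. Spermatocyte markers summed to 727 and 989 RPM, against 950.3 and 684 RPM in the Wfdc15a+/- libraries, and spermatogonia markers to 135 and 125 RPM, against 115 and 86.0 RPM in the Wfdc15a+/- libraries. Of 17 macrophage markers, 16 were tested, and 14 lay higher in both Wfdc15a-/- libraries than in both Wfdc15a+/- libraries. Over all tested genes, 23.5% did so. The summed level of all 17 was 388 and 130.4 RPM in Wfdc15a-/- libraries 1 and 2, against 39.0 and 38.7 RPM in the Wfdc15a+/- libraries, where Tyrobp, an adaptor of myeloid receptors, had no read.

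Germ cell isoforms exceeded their somatic partners in all 4 libraries for each of the 4 pairs. Levels between genes are compared as RPM per kilobase of the GENCODE M21 principal transcript. Averaged over the 4 libraries, Cox8c, the testis form of complex IV subunit 8, stood at 475 RPM per kilobase against 7.04 for Cox8a, a ratio of 67.5. Cox7b2 stood at 298 RPM per kilobase against 0.845 for its X-linked partner Cox7b, a ratio of 352. In RPM without the length this ratio was 191, and Cox7b had only 2 to 38 reads per library. Cox6b2 stood at 309 RPM per kilobase against 19.5 for Cox6b1, a ratio of 15.9. Cyct, the testis cytochrome c, stood at 117 RPM per kilobase against 3.21 for Cycs, a ratio of 36.4. The cytochrome c ratio depends on the 3123 bases annotated for Cycs and 655 for Cyct, and it was 7.63 in RPM without the length. Nothing here is a test, since the isoforms were chosen as germ cell and somatic forms.

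**Figure D1:**
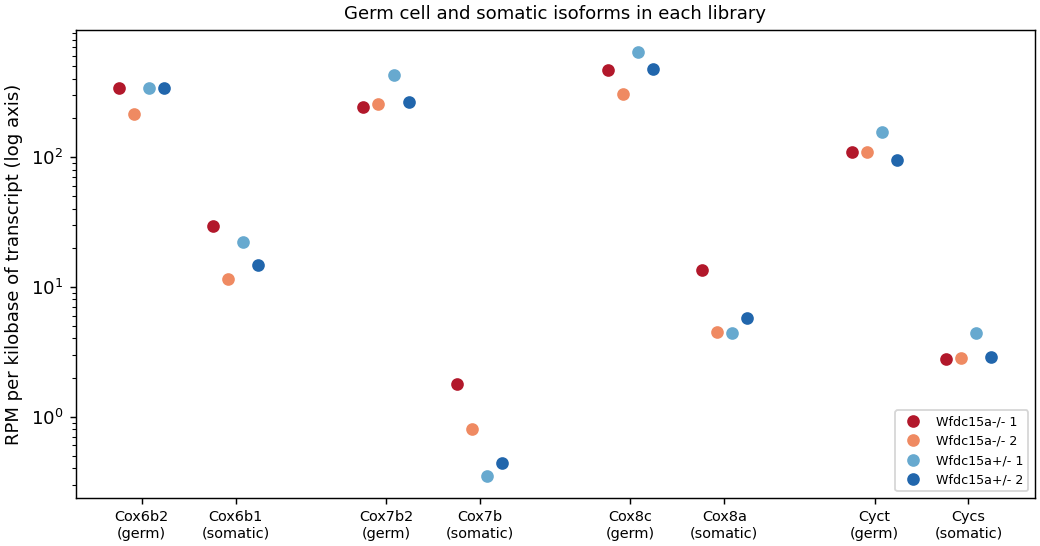
Level of each germ cell isoform and its somatic partner in each library, in RPM per kilobase of transcript on a log axis. Points are single libraries, 2 Wfdc15a-/- and 2 Wfdc15a+/-. Every germ cell isoform lies above its partner in all 4 libraries, with the widest gap for Cox7b2 over Cox7b.

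In the mm10 build the germ cell isoforms lie apart from their partners. Cox6b2 lies on chromosome 7 from 4751794 to 4753094 on the minus strand and Cox6b1 on chromosome 7 from 30616974 to 30626151. Cox7b2 lies on chromosome 5 from 71442824 to 71548205, and Cox7b on chromosome X from 106015700 to 106022450. Cox8c lies on chromosome 12 from 102899306 to 102900534 and Cox8a on chromosome 19 from 7215158 to 7217616. Cyct lies on chromosome 2 from 76353942 to 76360450 and Cycs on chromosome 6 from 50562563 to 50566538. The principal transcripts of Cox6b2, Cox7b2, Cox8c and Cyct have 3, 3, 2 and 4 exons.

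The promoters of 2 pairs are shown: Cox7b2 and Cox7b, which had the widest ratio of levels per length, and Cyct and Cycs, the only pair outside complex IV. Each run is the 250 bases before the RefSeq start (build GRCm38.p6), 5′ to 3′ on the gene's strand. Capitals mark matches, on either strand, to TGACGTCA (the cyclic AMP response element), the palindromic core bound by NRF1, CCGGAAG (an ETS core of the kind bound by GABPA) or CCAAT. The windows are chr2:76360454-76360703 (minus) for Cyct, chr6:50566570-50566819 (minus) for Cycs, chr5:71548206-71548455 (minus) for Cox7b2 and chrX:106015450-106015699 (plus) for Cox7b.
Cyct: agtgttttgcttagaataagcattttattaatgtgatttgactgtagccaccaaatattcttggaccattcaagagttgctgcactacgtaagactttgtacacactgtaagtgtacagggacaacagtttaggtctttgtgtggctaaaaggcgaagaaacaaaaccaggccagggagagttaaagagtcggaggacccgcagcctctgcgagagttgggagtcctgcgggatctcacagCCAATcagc
Cycs: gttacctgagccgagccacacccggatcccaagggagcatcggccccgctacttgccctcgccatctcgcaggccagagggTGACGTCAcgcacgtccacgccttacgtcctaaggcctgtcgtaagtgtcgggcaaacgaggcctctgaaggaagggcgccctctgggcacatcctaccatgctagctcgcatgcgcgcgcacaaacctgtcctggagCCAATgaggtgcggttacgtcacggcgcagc
Cox7b2: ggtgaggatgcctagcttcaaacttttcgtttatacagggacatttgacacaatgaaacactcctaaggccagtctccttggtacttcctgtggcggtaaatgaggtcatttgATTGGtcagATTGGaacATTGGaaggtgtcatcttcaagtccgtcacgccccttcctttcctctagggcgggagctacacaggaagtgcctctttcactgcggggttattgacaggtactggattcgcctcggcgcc
Cox7b: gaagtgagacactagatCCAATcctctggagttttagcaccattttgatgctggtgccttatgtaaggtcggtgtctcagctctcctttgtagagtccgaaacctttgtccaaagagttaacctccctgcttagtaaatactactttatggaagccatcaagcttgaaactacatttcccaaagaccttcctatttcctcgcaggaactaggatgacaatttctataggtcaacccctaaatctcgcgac

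The window of Cycs held 1 match to TGACGTCA, 1 to CCAAT and 23 CpG dinucleotides, while that of Cyct held 1 match to CCAAT and 6 CpG. The window of Cox7b2 held 3 matches to CCAAT and 9 CpG, and that of Cox7b held 1 match to CCAAT and 5 CpG. Among the other windows in the table, that of Cox6b2 held 2 matches to CCAAT and 8 CpG, and that of Cox6b1 held 2 matches to CCAAT, 1 to CCGGAAG and 14 CpG. Cox8a held 1 match to CCAAT and 11 CpG. Matches to different motifs overlapped in 0 of these windows. A match is a description and not a bound site, and the absence of a match says nothing about a factor. Of 80 windows found for 74 members, 6.25% held TGACGTCA, 18.8% the NRF1 core, 16.2% the ETS core and 45.0% CCAAT. The shares among all 32851 windows were 1.55%, 3.74%, 6.91% and 33.8%. The median CpG count was 14 in the windows of members and 6 in all windows.

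None of the germ cell isoforms passed the limma test between genotypes. Cox8c was at 216 and 139.8 RPM in Wfdc15a-/- libraries 1 and 2, against 297 and 217 RPM in Wfdc15a+/- libraries 1 and 2. Wfdc15a-/- library 1 lay just under Wfdc15a+/- library 2, so the groups did not overlap, but their gap was small beside the spread within each group. The log2 difference was -0.55 (SE 0.27, limma adjusted p = 0.628). It was -0.86 without Wfdc15a-/- library 1, -0.23 without Wfdc15a-/- library 2 and -0.32 without Wfdc15a+/- library 1. Cox7b2 was at 131 and 139 RPM in the Wfdc15a-/- libraries, against 232 and 143 RPM in the Wfdc15a+/- libraries. The groups did not overlap, although Wfdc15a+/- library 1 alone stood apart from the other 3. The log2 difference was -0.44 (SE 0.27, limma adjusted p = 0.697), or -0.086 without Wfdc15a+/- library 1 and -0.79 without Wfdc15a+/- library 2. Cox6b2 was at 197 and 125 RPM in the Wfdc15a-/- libraries, against 199.9 and 199.5 RPM in the Wfdc15a+/- libraries. Wfdc15a-/- library 2 was the low one, and library 1 lay just under the Wfdc15a+/- values. The log2 difference was -0.34 (SE 0.26, limma adjusted p = 0.765), or -0.67 without Wfdc15a-/- library 1 and -0.017 without Wfdc15a-/- library 2. Cyct was at 71.0 and 71.9 RPM in the Wfdc15a-/- libraries, against 101 and 62.3 RPM in the Wfdc15a+/- libraries, and the groups overlapped (log2 difference -0.15, SE 0.29, limma adjusted p = 0.927).

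The somatic partners rested on fewer reads. Cox7b had 38 and 9 reads in Wfdc15a-/- libraries 1 and 2 and 2 and 15 reads in Wfdc15a+/- libraries 1 and 2. This gave 1.80 and 0.799 RPM in the Wfdc15a-/- libraries, against 0.346 and 0.443 RPM in the Wfdc15a+/- libraries. Both Wfdc15a-/- libraries lay above both Wfdc15a+/- libraries, but the gene was below the minimum level for testing. Cox8a was at 7.42 and 2.48 RPM in the Wfdc15a-/- libraries, against 2.42 and 3.16 RPM in the Wfdc15a+/- libraries, high in Wfdc15a-/- library 1 alone. Cox6b1 was at 18.2 and 7.10 RPM in the Wfdc15a-/- libraries, against 13.7 and 9.13 RPM in the Wfdc15a+/- libraries. Cox7b, Cox8a and Cox6b1 were each highest in Wfdc15a-/- library 1, the library with the highest summed macrophage markers (388 RPM) and Leydig markers (37.7 RPM, against 16.7, 6.58 and 3.19 RPM in the other 3). Of 7 Leydig markers, 4 were tested. Of these, 3 were higher in both Wfdc15a-/- libraries than in both Wfdc15a+/- libraries, against 23.5% of all tested genes. The part of other cells in these levels was not tested, and in sorted bulk cells fewer cells of a type and less RNA per cell cannot be told apart. Cycs, the somatic cytochrome c, was at 8.65 and 8.87 RPM in the Wfdc15a-/- libraries, against 13.7 and 8.95 RPM in the Wfdc15a+/- libraries, highest in Wfdc15a+/- library 1 and nearly equal in the other 3. Annotated pseudogene transcripts of high identity exist for Cycs (3) and Cox7b (2), and their reads may be shared.

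The ratio within a library does not depend on the library total. Cox7b2 over Cox7b was 72.8 and 174 in RPM in the Wfdc15a-/- libraries, against 671 and 323 in the Wfdc15a+/- libraries. The value of 671 rests on 2 reads of Cox7b and has a 95% interval of 185 to 5546 (exact binomial, counting error only, as amplified copies of 1 molecule are counted as several reads). The log2 ratio was 6.81 ± 0.89 in Wfdc15a-/- and 8.86 ± 0.75 in Wfdc15a+/- (SD, n = 2 each, exact permutation p = 0.333, two-sided). Its difference was -2.05, and it was -1.12 on the log2(RPM + 1) scale. Cox8c over Cox8a was 29.1 and 56.2 in the Wfdc15a-/- libraries, against 123 and 68.8 in the Wfdc15a+/- libraries (difference in log2 ratio -1.18, exact permutation p = 0.333). That difference was -0.71 without Wfdc15a-/- library 1 and -0.77 without Wfdc15a+/- library 1. Cox6b2 over Cox6b1 was 10.9 and 17.7, against 14.6 and 21.9 in the Wfdc15a+/- libraries, and the groups overlapped (difference in log2 ratio -0.37, exact permutation p = 0.667). That difference was -0.016 without Wfdc15a-/- library 1, -0.72 without Wfdc15a-/- library 2, -0.66 without Wfdc15a+/- library 1 and -0.077 without Wfdc15a+/- library 2. Cyct over Cycs was 8.21 and 8.10, against 7.41 and 6.96 in the Wfdc15a+/- libraries (difference in log2 ratio 0.18, exact permutation p = 0.333). With 2 libraries against 2, 0.333 is the smallest p, and over the 4 pairs the Benjamini-Hochberg adjusted values were 0.444 for 3 pairs and 0.667 for Cox6b2.

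Other tissue isoforms did not follow the pattern of the germ cell pairs. Cox4i1, the ubiquitous subunit 4, averaged 402 RPM per kilobase against 4.39 for the lung form Cox4i2. Cox7a2, the ubiquitous subunit 7a, averaged 409 RPM per kilobase, against 0.519 for Cox7a1, the heart and muscle form, which had reads in 2 of the 4 libraries (11 in Wfdc15a-/- library 1 and 10 in Wfdc15a+/- library 2). Cox7a2l, a supercomplex factor related to them, averaged 35.4 RPM per kilobase. Cox6a1, the ubiquitous subunit 6a, averaged 69.2 RPM per kilobase against 6.97 for the muscle form Cox6a2. Cox8b, the muscle form of subunit 8, had 0 reads in all 4 libraries, which allows up to 0.142 and 0.266 RPM in the Wfdc15a-/- libraries and 0.520 and 0.0886 RPM in the Wfdc15a+/- libraries (3 reads each). Ndufa4, a subunit first assigned to complex I and now placed in complex IV, and its relative Ndufa4l2 averaged 7.52 and 8.75 RPM per kilobase, both low for this complex.

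Members varied widely in level within every complex. The 89 chain genes include the 4 complex I assembly factors, and the ranking over 24447 genes with a length includes genes without reads. Of the 89, 56 were at or above the 90th percentile and 8 at or above the 99th. The median chain gene stood at 64.4 RPM per kilobase. In complex I, Ndufa7, an accessory subunit, was highest at 266 RPM per kilobase and the X-linked Ndufb11 lowest at 2.02. Of the catalytic core subunits, Ndufv2 was highest at 186 RPM per kilobase and Ndufs8 lowest at 16.8, with Ndufs1 at 64.4. Among the assembly factors, Ndufaf3 was highest at 121 RPM per kilobase and Ndufaf4 lowest at 0.708.

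In complex II the catalytic and membrane subunits differed. Sdhb, the iron-sulfur subunit, stood at 115 RPM per kilobase and Sdha, the flavoprotein, at 59.8. The membrane anchors Sdhd and Sdhc stood at 14.7 and 1.51 RPM per kilobase, the last over an annotated transcript of 3171 bases. Of the 8 complex III genes taken by symbol, the core protein gene Uqcrc1 was highest at 292 RPM per kilobase. The small subunit Uqcr11 was the lowest of these at 22.2. Cyc1, a further complex III subunit that the symbol rule does not take, stood at 9.21 RPM per kilobase. In complex V, Atp5o, a stalk subunit, stood at 396 RPM per kilobase and the catalytic beta subunit Atp5b at 368. Subunit c, which forms the rotor ring in several copies, is encoded by Atp5g1, Atp5g2 and Atp5g3 as the same mature protein. They stood at 3.49, 16.1 and 18.6 RPM per kilobase, a sum of 38.2. This order depends on annotated transcripts of 4715, 731 and 714 bases. In RPM without the length, Atp5g1 was the highest at 16.5, against 11.8 for Atp5g2 and 13.2 for Atp5g3. Atp5o overlaps several other listed genes and has a similar pseudogene, so its reads may be shared.

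**Figure D2:**
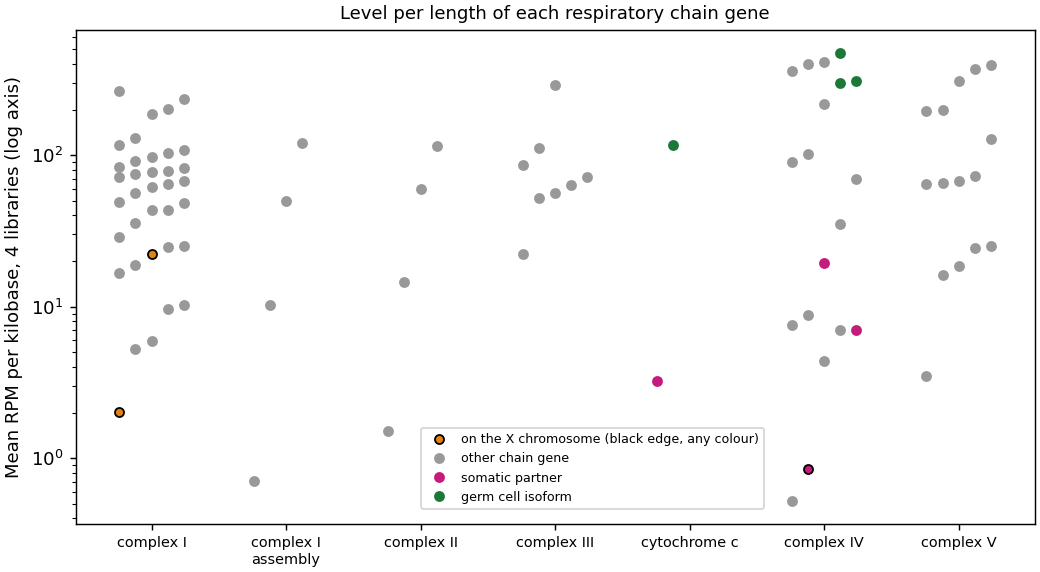
Mean level per length of each chain gene over 4 libraries, in RPM per kilobase on a log axis, by complex. Each point is a gene, and Cox8b, with 0 reads, is not drawn. Germ cell isoforms are in green near the top of their class, at 117 to 475 RPM per kilobase, and their somatic partners in magenta at 0.845 to 19.5.

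The 3 X-linked chain genes were among the low members. Ndufa1, an accessory subunit of complex I, stood at 22.2 RPM per kilobase, Ndufb11 at 2.02 and Cox7b at 0.845. Of the 86 autosomal chain genes, 63 were above the highest of these 3 and 3 were below the lowest. The median of autosomal chain genes was 64.9 RPM per kilobase. For all tested genes with a length, the median was 2.76 RPM per kilobase for 572 X-linked genes and 5.13 for 14809 autosomal genes. The median log2 difference between genotypes was 0.31 over these X-linked genes and 0.06 over the autosomal ones. Ndufb11 was at 2.36 and 2.57 RPM in the Wfdc15a-/- libraries, against 0.866 and 1.54 RPM in the Wfdc15a+/- libraries (log2 difference 1.10, SE 0.79, limma adjusted p = 0.748). Ndufb11 overlaps Rbm10 and has a similar pseudogene. Ndufa1 was at 12.6 and 7.99 RPM in the Wfdc15a-/- libraries, against 9.70 and 6.85 RPM in the Wfdc15a+/- libraries, and overlapped between groups.

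The genotype comparison gave no member past the threshold. Limma was fitted to all 15888 tested genes. At a Benjamini-Hochberg adjusted p of 0.05, 0 of the 89 tested members were called, beside a background of 0.00%. At an unadjusted p under 0.05 there were 4 members, all lower in Wfdc15a-/-, or 4.49% of members, against 8.08% of all tested genes in either direction 1.87% in the lower one and 6.21% in the higher one. With voom weights on recovered reads 0 members passed, and 5 (5.62%) had an unadjusted p under 0.05, against 12.3% of all tested genes. Both Wfdc15a-/- libraries lay below both Wfdc15a+/- libraries for 25 members (background 15.0%) and above both for 6 (background 23.5%). The groups overlapped for 58. The median log2 difference was -0.19 over the 89 members and 0.07 over all tested genes, and 69 of the 89 differences were negative, against 43.9% of all tested genes. Of the cell markers, 5 of 10 for elongating spermatids lay below both Wfdc15a+/- libraries and the other 5 overlapped between groups. Of the 16 tested for macrophages, 14 lay above. The part of these cells in these counts was not tested. The other 3 members, Cox7b, Cox7a1 and Cox8b, were below 1 RPM in too many libraries to be tested.

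Wfdc15a-/- library 2 carried the lower values. It was the lowest of the 4 libraries for 58 of 89 members (65.2%), and for 22.9% of all tested genes. The median member deviated from its mean over the 4 libraries by 0.10 and -0.30 log2 units in Wfdc15a-/- libraries 1 and 2, and by 0.19 and 0.03 in Wfdc15a+/- libraries 1 and 2. Without Wfdc15a-/- library 2 the median log2 difference was -0.0017 over members, against 0.12 over all tested genes, and 0 members had an unadjusted p under 0.05, against 4.05% of all tested genes. Without Wfdc15a-/- library 1 it was -0.37 over members, against 0.07 over all tested genes.

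In summed levels, Wfdc15a-/- library 2 was the lowest over all chain genes, in complexes I, III, IV and V and in the complex I assembly factors. Wfdc15a+/- library 2 was the lowest in complex II (293 RPM) and cytochrome c (71.2 RPM). The 89 chain genes held 8452 and 6780 RPM in Wfdc15a-/- libraries 1 and 2, against 8932 and 8002 RPM in Wfdc15a+/- libraries 1 and 2, and the groups overlapped (exact permutation p = 0.667). Complex IV summed to 1823 and 1253 RPM in the Wfdc15a-/- libraries, against 2096 and 1738 RPM in the Wfdc15a+/- libraries. Complex I summed to 2866 and 2263 RPM, against 3003 and 2772 RPM in the Wfdc15a+/- libraries. Complex V summed to 2147 and 1815 RPM, against 2173 and 1944 RPM in the Wfdc15a+/- libraries. For these 3 complexes the exact permutation p was 0.667, for the other 4 classes it was 1, and the adjusted value over the 7 classes was 1 each.

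**Figure D3:**
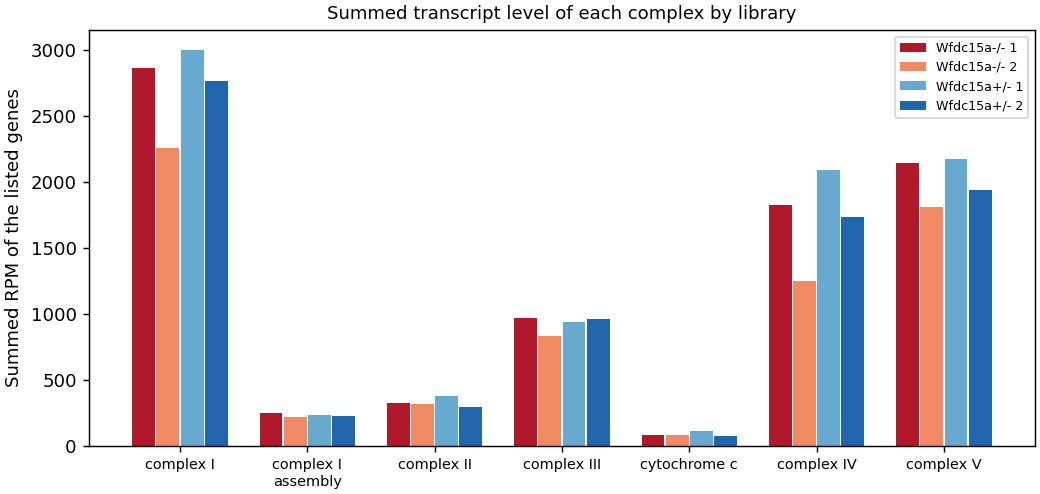
Summed RPM of the listed genes of each complex, 1 bar for each library, with Wfdc15a-/- left of Wfdc15a+/-. Wfdc15a-/- library 2 has the lowest bar for complexes I, III, IV and V, while Wfdc15a-/- library 1 lies within or near the Wfdc15a+/- pair.

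The 4 members at an unadjusted p under 0.05 were single small subunits of complexes I, III and IV. Uqcr10, a small subunit of complex III, was at 19.9 and 11.3 RPM in the Wfdc15a-/- libraries, against 30.3 and 28.5 RPM in the Wfdc15a+/- libraries (log2 difference -0.97, SE 0.37, limma adjusted p = 0.585). Ndufc1, an accessory subunit of complex I, was at 82.9 and 64.2 RPM, against 125 and 103 RPM in the Wfdc15a+/- libraries (log2 difference -0.64, SE 0.26, limma adjusted p = 0.596). Cox6c, a complex IV subunit, was at 106 and 64.6 RPM, against 146 and 121 RPM in the Wfdc15a+/- libraries (log2 difference -0.68, SE 0.29, limma adjusted p = 0.596). Cox5b, another nuclear subunit of complex IV, was at 72.6 and 49.1 RPM, against 106.9 and 84.6 RPM in the Wfdc15a+/- libraries (log2 difference -0.67, SE 0.29, limma adjusted p = 0.599). In all 4 genes the groups did not overlap and Wfdc15a-/- library 2 was lowest. Cox6c overlaps Vps13b and has 2 similar pseudogenes. Without Wfdc15a-/- library 2 their log2 differences were -0.56 for Uqcr10, -0.45 for Ndufc1, -0.33 for Cox6c and -0.39 for Cox5b.

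Among members next in rank, Ndufa3, an accessory subunit of complex I, was at 13.4 and 6.92 RPM in the Wfdc15a-/- libraries, against 24.2 and 14.6 RPM in the Wfdc15a+/- libraries. Uqcrb, a complex III subunit with 3 similar pseudogenes, was at 36.2 and 34.6 RPM, against 69.97 and 42.9 RPM in the Wfdc15a+/- libraries. In complex V, Atp5h, a stalk subunit, was at 121 and 94.6 RPM, against 149 and 130.3 RPM in the Wfdc15a+/- libraries. Atp5j2, a small membrane subunit, was at 21.4 and 17.4 RPM, against 26.0 and 28.1 RPM in the Wfdc15a+/- libraries. Lack of overlap was a condition of naming these genes and is not a result. Their limma adjusted p-values were 0.616 for Ndufa3, 0.628 for Uqcrb, 0.713 for Atp5h and 0.722 for Atp5j2.

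On the higher side, members were named by the same rule, which required groups without overlap. Both membrane anchors of complex II lay above the Wfdc15a+/- libraries. Sdhc was at 6.10 and 6.57 RPM in the Wfdc15a-/- libraries, against 3.12 and 3.43 RPM in the Wfdc15a+/- libraries (log2 difference 0.95, SE 0.50, limma adjusted p = 0.641). The libraries of each genotype lay close together. Sdhd was at 20.9 and 22.9 RPM, against 20.3 and 8.12 RPM in the Wfdc15a+/- libraries (log2 difference 0.77, SE 0.44, limma adjusted p = 0.670). Its difference was 0.11 without Wfdc15a+/- library 2. Uqcrc2, a complex III core protein, was at 119 and 117 RPM, against 114 and 79.3 RPM in the Wfdc15a+/- libraries. Atp5b was at 792 and 713 RPM, against 682 and 635 RPM in the Wfdc15a+/- libraries (log2 difference 0.19, SE 0.19, limma adjusted p = 0.830).

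Transcript length moved with the deviation of Wfdc15a-/- library 2. The median annotated transcript was 765 bases for chain genes and 2694 bases for all tested genes. For the 22 tested chain genes of 600 bases or fewer, the median deviation from the gene mean was 0.06 and -0.49 log2 units in Wfdc15a-/- libraries 1 and 2, and 0.25 and 0.09 in Wfdc15a+/- libraries 1 and 2. For the 10 chain genes over 2000 bases it was 0.02 and -0.15 in the Wfdc15a-/- libraries, and 0.17 and -0.04 in the Wfdc15a+/- libraries. Other tested genes at a mean of 5 RPM or more showed the same direction with length. Their median deviation in Wfdc15a-/- library 2 was -0.19 for 337 genes of 600 bases or fewer and 0.05 for 7023 genes over 2000 bases. Wfdc15a-/- library 2 was the lowest library for 72.7% of the short chain genes and for 43.6% of the other short genes. With each library's trend along length removed, the median difference of the members was -0.15, against 0.06 over all 15388 genes with a length, and 3 members (3.37%) had an unadjusted p under 0.05, against 8.20% of those genes. With the trend removed the log2 difference was -0.81 for Uqcr10, -0.61 for Ndufc1, -0.54 for Cox6c and -0.61 for Cox5b. Cox6c was then no longer among the members at an unadjusted p under 0.05 (limma adjusted p = 0.611).

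**Figure D4:**
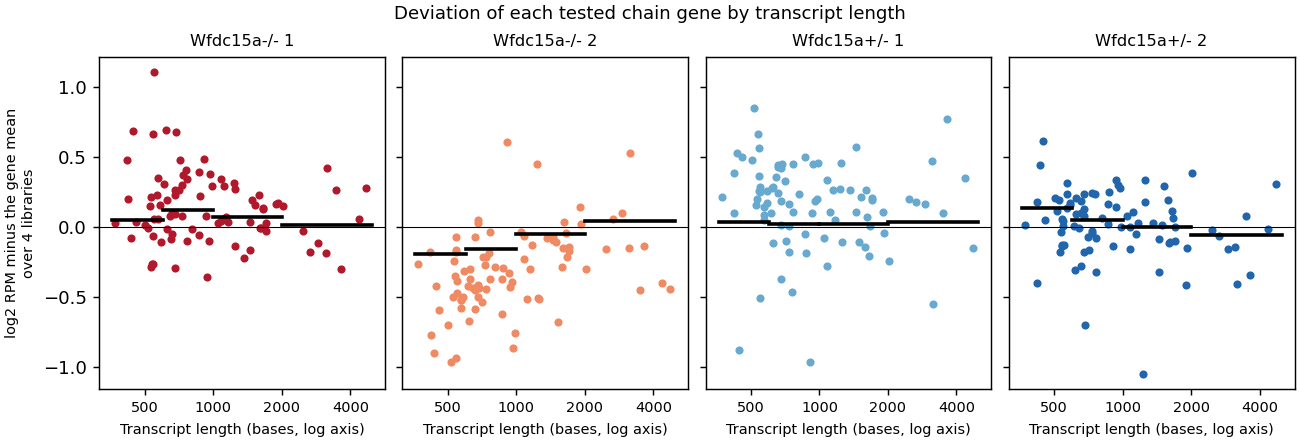
Deviation of each tested chain gene from its own mean over 4 libraries (log2 RPM) against transcript length in bases on a log axis, 1 panel for each library. Points are genes and black bars are the medians of other tested genes at 5 RPM or more in 4 length ranges. Short chain genes lie below 0 in Wfdc15a-/- library 2, with a median of -0.49 at 600 bases or fewer.

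Other genes of the pathway were counted from lists. At an unadjusted p under 0.05 the background over all tested genes was 6.21% higher and 1.87% lower. Of 33 tested assembly factors of complexes II to V, 0 passed, 1 was higher and 1 lower at an unadjusted p under 0.05, and the median log2 difference was -0.06. Cox16, a complex IV assembly factor, was at 273 and 259.8 RPM in the Wfdc15a-/- libraries, against 162 and 209.7 RPM in the Wfdc15a+/- libraries (limma adjusted p = 0.596). Cox19, a complex IV assembly factor, was at 6.57 and 6.39 RPM, against 12.8 and 13.1 RPM in the Wfdc15a+/- libraries (limma adjusted p = 0.591). A list of 9 tested complex I assembly factors included Atp5sl (Dmac2), already counted among the rule matches. Of these 9, 2 were higher and 0 lower at an unadjusted p under 0.05. Foxred1 was at 17.4 and 14.2 RPM, against 7.79 and 9.30 RPM in the Wfdc15a+/- libraries (limma adjusted p = 0.602), and Tmem186 at 7.33 and 9.23 RPM, against 5.02 and 2.57 RPM in the Wfdc15a+/- libraries (limma adjusted p = 0.603). Of 7 other genes of mitochondrial proteins, Cyc1 among them and not all of them chain subunits, 0 were higher and 1 lower. The lower one, Usmg5, a small ATP synthase subunit, was at 60.9 and 43.3 RPM, against 84.7 and 91.9 RPM in the Wfdc15a+/- libraries (limma adjusted p = 0.565). None of these 16 genes passed the adjusted threshold.

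Of 18 genes of pyruvate dehydrogenase and the citric acid cycle, 0 passed, and 1 was higher and 1 lower at an unadjusted p under 0.05. Idh3g, a regulatory subunit of NAD-dependent isocitrate dehydrogenase, was at 12.3 and 8.52 RPM in the Wfdc15a-/- libraries, against 4.68 and 4.14 RPM in the Wfdc15a+/- libraries (limma adjusted p = 0.585). Suclg2, a succinate-CoA ligase subunit, was at 15.1 and 19.3 RPM, against 30.5 and 29.4 RPM in the Wfdc15a+/- libraries (limma adjusted p = 0.591). Pdha2, the autosomal germ cell form of the pyruvate dehydrogenase alpha subunit, was at 139 and 129 RPM in the Wfdc15a-/- libraries, against 124 and 114 RPM in the Wfdc15a+/- libraries. Its X-linked partner Pdha1 was at 0.756 and 1.33 RPM in the Wfdc15a-/- libraries, against 1.56 and 0.325 RPM in the Wfdc15a+/- libraries. Averaged over the 4 libraries, Pdha2 stood at 53.9 RPM per kilobase against 0.349 for Pdha1, a ratio of 155.

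Of 16 regulators of mitochondrial biogenesis, 0 passed, 1 was higher and 1 lower at an unadjusted p under 0.05, and the median log2 difference was 0.46. Pprc1, a coactivator related to PGC-1, was at 5.86 and 5.06 RPM in the Wfdc15a-/- libraries, against 1.39 and 0.798 RPM in the Wfdc15a+/- libraries (log2 difference 2.37, limma adjusted p = 0.469). Tfam, which packages mitochondrial DNA and starts its transcription, was at 97.8 and 72.3 RPM, against 115 and 150.4 RPM in the Wfdc15a+/- libraries (log2 difference -0.64, limma adjusted p = 0.596). The 13 mitochondrially encoded subunits were listed with 0 reads in every library. Since these transcripts are abundant in cells with mitochondria, a listing of 0 gives no level for them.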

How the data were processed

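The authors deposited log2 RPM values per gene (log2 of reads scaled to the library total, without adjustment for length), with mm10 coordinates. Per the submitters' processing notes, FastQC 0.11.8, Trim Galore 0.6.6 and HISAT2 2.1.0 were used. For the read counter and its annotation, no name is given in the sources used here. The lowest value of each library was taken as 0.9 of a read, and 99.7% to 100.0% of the other values then lay within 0.01 of a whole number of reads.

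The test took genes reaching 1 RPM in 2 or more libraries and was run with limma 3.58.1 in R 4.3.3 (mean-variance trend, two-sided, Benjamini-Hochberg over 15888 genes, threshold 0.05). Single values were tested by exact permutation (SciPy 1.17.1). Lengths came from GENCODE M21 (94.2% of symbols and all 92 members matched, 2 by an older symbol), and promoters from RefSeq. Of the members, 20 overlap another listed gene and 23 have a pseudogene transcript of 95% identity or more over 150 bases or more (blastn 2.17.0). Named were the isoform pairs, X-linked members, members at unadjusted p under 0.05, the highest and lowest per class, and the 2 smallest p-values per class and direction without overlap. Pathway genes at unadjusted p under 0.05, Pdha1, Pdha2, Sdha, Sdhb, Ndufv2, Ndufs1, Ndufs8, Cyc1, Atp5g2 and Atp5g3 were named after their values were seen. Members and lists were chosen with earlier results of these data known. The code was tested on simulated data.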

Additional observations from a re-analysis of the deposited data

How the results depend on the processing

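No member passed the adjusted threshold in the main analysis or under any alternative run. Among all tested genes 0 passed in the main analysis, while 180 passed without a filter, 66 with the replicate number as a block, 404 with the numbers crossed as a block, 442 without Wfdc15a+/- library 1, 558 without Wfdc15a+/- library 2, 5 without Wfdc15a-/- library 2 and 1 with log2(RPM + 1). The number of members at an unadjusted p under 0.05 was 4 (4.49%, against 8.08% of all tested genes). It was 7 with median-ratio scaling (7.87%, against 8.08%) and 7 without a filter (7.61%, against 8.03%). It was 2 with the replicate block (2.25%, against 7.40%) and 12 with the crossed block, tried after seeing the data (13.5%, against 13.7%). With 1 library left out it was 0 to 12. It was 9 without Wfdc15a-/- library 1 (10.1%, against 3.52%), 0 without Wfdc15a-/- library 2 (against 4.05%) and 12 without Wfdc15a+/- library 2 (13.5%, against 17.8%). Same-numbered libraries deviated from their group means with a correlation of -0.076 over tested genes, and of -0.26 at 5 RPM or more. No label says that the numbers pair the libraries. The median member difference stayed negative under every alternative run, between -0.37 and -0.0017. The ratio of Cox7b2 over Cox7b moved to a difference of -1.12 with log2(RPM + 1), and that of Cyct over Cycs to 0.38 with quantile normalization. Named genes that changed sign under some alternative included Cyct, Cox6b1, Cox8a and Ndufa1, and not every named gene was followed in this way. Cyct reached 0.20 without Wfdc15a+/- library 1 and -0.50 without Wfdc15a+/- library 2. Cox6b1 (0.02) was -0.036 with median-ratio scaling, -0.10 with quantile normalization and -0.65 to 0.70 when 1 library was left out. Under the same omissions Cox8a (0.63) ranged from -0.16 to 1.42 and Ndufa1 (0.30) from -0.030 to 0.63. The cause was not tested. A fit without 1 library assumes that the lone library varies like the other group. Cox7b, Cox7a1 and Cox8b were under the level needed for a test.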
